A study of Mus musculus with 8 samples.

Results

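The genes of matrix metalloproteases (MMPs), of the related ADAM and ADAMTS proteases and of the tissue inhibitors of metalloproteases (TIMPs) were followed in primary hepatic stellate cells of mice, cultured into myofibroblasts (pMF-HSCs), after inhibition of O-GlcNAc transferase (OGT). They were chosen by symbol, as Mmp, Timp, Adam or Adamts followed by a number alone, with a final a or b allowed for Mmp genes, so that Adam genes with a letter after the number, such as Adam1a, were not included. Adamts2, Adamts3 and Adamts14, which trim procollagens, were left out. This gave 70 of the 40840 genes in the deposited tables, namely 23 Mmp, 27 Adam, 16 Adamts and 4 Timp genes. Hepatic stellate cells are the retinol-storing pericytes of the liver sinusoid. They came from the livers of male wild-type C57BL/6J mice aged 15 to 18 weeks, were purified on a density gradient, sorted by retinol autofluorescence, and kept for 7 days in serum-containing culture, in which they turn into myofibroblasts. The 4 control cultures then received the vehicle DMSO, and the 4 OGTi cultures received OSMI-1, a small molecule that inhibits OGT, at 50 µM, in both groups for 24 h. No transgene or deletion was used, and the 4 replicates of each group were separate experiments, paired by replicate number. The model is a culture of sorted stellate cells, activated by culture and not by injury, with 1 dose and 1 time point. The comparison asks which matrix-degrading enzymes and inhibitors these cells transcribe and how the set differs once OGT is inhibited.

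MMPs are zinc-dependent enzymes, mostly secreted as inactive precursors, that cut collagens, proteoglycans and other matrix proteins outside the cell. ADAMs are related enzymes anchored in the membrane, which release growth factors, cytokines and receptor domains from cell surfaces, and ADAMTS enzymes are secreted and cut proteoglycans such as versican and aggrecan. TIMPs block the active site of MMPs and of some ADAM and ADAMTS enzymes. In injured liver the stellate cell is known as a main source of TIMP1 as well as of several MMPs. It can thus both degrade scar matrix and protect it from degradation.

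The libraries held 30068876 to 37372420 expected counts each. The 70 genes took 0.644% to 0.873% of the counts in control libraries and 0.375% to 0.560% in OGTi libraries. Stellate and fibroblast markers were high throughout, with summed levels of 7002 to 13080 TPM (a level per gene length and library depth) in control and 5574 to 12010 TPM in OGTi. Of these 12 markers 2 fell with OGTi, the receptor gene Pdgfrb and the retinol esterification gene Lrat. Of the 12 macrophage markers, summed at 49.9 to 189.9 TPM in control and 90.2 to 235.3 TPM in OGTi, 1 rose (Cd68, a lysosomal gene). Summed markers reached at most 0.78 TPM for lymphocytes, 3.42 TPM for endothelial cells and 2.32 TPM for mesothelial cells. Hepatocyte, neutrophil and cholangiocyte lists summed to 197.3 to 306.4, 10.8 to 43.3 and 128.4 to 654.5 TPM, mostly through Ass1, S100a8 and Spp1. Over all marker lists 9 of 56 genes tested were called, or 16.1%, against 18.4% of all genes tested. The endothelial genes Tek (log2 fold change −3.36) and Lyve1 (−3.17) fell, and the endothelial sum went from 1.57 to 3.42 TPM in control to 0.36 to 1.36 TPM in OGTi without overlap. Ltf (−1.57) and Krt19 (−0.66) fell, while Sox9 (3.03) and Cyp2e1 (3.98, at most 1.2 TPM) rose. The part of these markers in the results on the proteases was not tested. In such bulk cultures fewer cells of a type and less RNA per cell cannot be told apart.

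A small number of the genes made up most of the signal. Mean levels over the 8 libraries reached at least 1 TPM for 28 of the 70 genes (13 Mmp, 6 Adam, 6 Adamts and 3 Timp genes) and at least 10 TPM for 16 of them. The highest mean levels belonged to the stromelysins Mmp10 and Mmp3, which cut proteoglycans and activate other MMPs, with 1781 and 1271 TPM. The inhibitor Timp1 followed at 1239 TPM, the matrix-bound inhibitor Timp3 at 377.8 TPM and the sheddase Adam9 at 234.0 TPM. The next 5 were Adam15 (68.0 TPM), the collagenase Mmp13 (64.6 TPM), Adamts1 (46.0 TPM), the gelatinase Mmp2 (43.3 TPM) and Timp2 (40.5 TPM). Mmp10 and Mmp3 did not separate beyond their spread, since in control libraries Mmp10 ran from 1754 to 2284 TPM and Mmp3 from 733.2 to 2740 TPM. At the other end, 8 genes (Adam2, Adam7, Adam20, Adam24, Adam39, Adamts16, Mmp7 and Mmp20) had no count in any library and 11 had 1 to 9 counts in all. Among these 11 was Timp4, with 2 counts, both in OGTi replicate 4. A further 23 genes were counted often enough to be tested but averaged under 1 TPM.

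**Figure D1:**
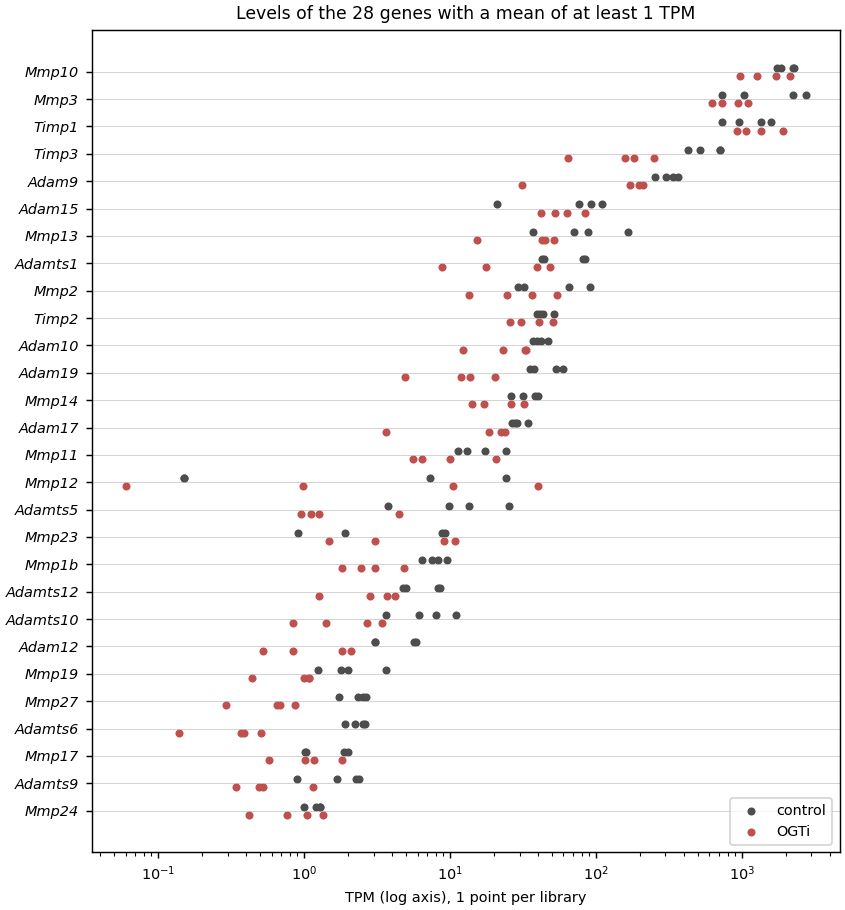
Levels in TPM (log axis) of the 28 genes with a mean of at least 1 TPM, with 1 point per library, control in grey and OGTi in red. Mmp10, Mmp3 and Timp1 lie between 621 and 2740 TPM in both groups, and the OGTi points of Timp3, Adam19, Adam12, Mmp27 and Adamts6 lie wholly to the left of the control points.

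OGT inhibition lowered 9 of the 51 genes that could be tested and raised none of them (edgeR quasi-likelihood test blocked by replicate, calls at p of up to 0.05 after Benjamini-Hochberg adjustment over all 19963 genes tested). The 9 were the proteoglycanase Adamts5, Adamts6, Adamts10 and Adamts12, the sheddases Adam19 and Adam12, the inhibitor Timp3, and the MMPs Mmp27 and Mmp1b. Of all genes tested 18.4% were called in either direction, 10.2% lower and 8.13% higher, against 17.6% lower and 0% higher among the 51. All 9 averaged at least 1 TPM, and among genes of that level 14.7% were called lower and 9.95% higher over the whole table, against 9 lower and 0 higher of 28 here. The median log2 fold change was −0.89 over the 51 genes and 0.01 over all genes tested. It was −0.54 without replicate 1 and −0.40 with limma on log2(TPM + 1). Scaled counts were lower in OGTi in all 4 pairs for 21 of the 51 genes, against 21.5% of all genes, and higher in all 4 pairs for 2, Timp1 and Mmp23, against 19.4%. The groups did not overlap for 13 genes, all lower in OGTi, where 12% of all genes were separated in that direction. The absence of a higher call depended on the tool and the scaling. At an unadjusted p under 0.05, 3 genes were higher (Mmp12, Mmp23 and Timp1), and DESeq2 called these 3 higher and 13 genes lower, where it called 13.8% of all genes higher and 14.4% lower.

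**Figure D2:**
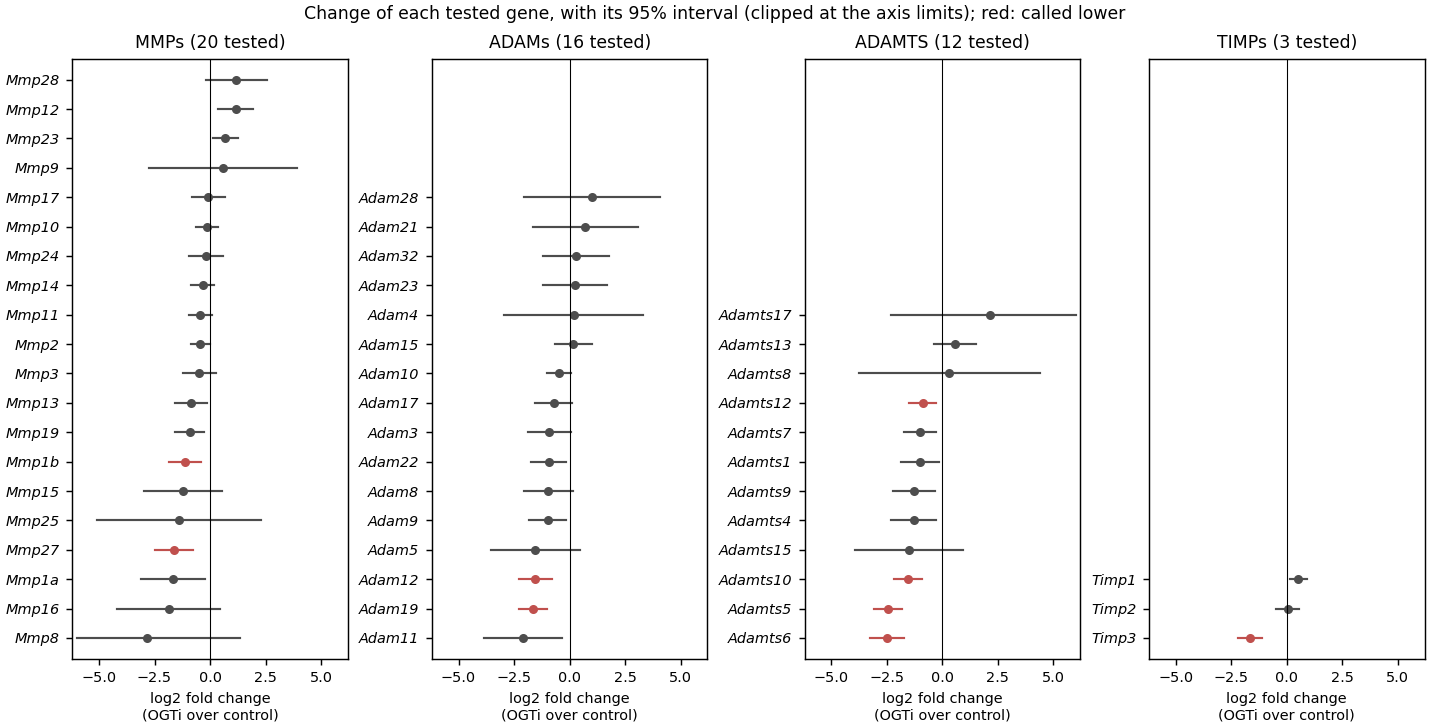
Log2 fold change (OGTi over control) of the 51 genes tested, by family, with 95% intervals clipped at the axis limits and the 9 genes called lower in red. The 36 points left of 0 include 9 of the 12 ADAMTS genes, while the intervals of rarely counted genes such as Mmp8 span most of the axis.

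Among the ADAMTS genes 4 of 12 fell (33.3%, against 10.2% of all genes) and the median log2 fold change was −1.14. Adamts5, on chromosome 16 (chr16:85653061-85698716, minus strand, GRCm39), encodes an aggrecanase that also cuts versican. Its scaled counts, which are counts adjusted for library size, were 1402, 3655, 1856 and 523 in control replicates 1 to 4 and 259, 683, 201 and 167 in OGTi replicates 1 to 4. Every OGTi library was below its own control, although OGTi replicate 2 exceeded control replicate 4, so that the groups overlapped. The log2 fold change was −2.43 (SE 0.28, adjusted p = 0.000588), a level 5.39-fold lower. Adamts6 (chr13:104424343-104633203, plus strand) is the second gene that fell more than 5-fold, and encodes a secreted protease with a role in heart development. It gave 392, 282, 322 and 373 scaled counts in control and 31.7, 82.6, 68.4 and 70.1 in OGTi, with no overlap. Its log2 fold change was −2.48 (SE 0.34, adjusted p = 0.0012). Adamts10, which acts on fibrillin microfibrils (chr17:33742987-33772758, plus strand), gave 298, 503, 628 and 884 in control and 100.4, 300.4, 143.5 and 267.6 in OGTi. The groups met at the edge, OGTi replicate 2 standing level with control replicate 1, and the log2 fold change was −1.54 (SE 0.28, adjusted p = 0.00438).

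Adamts12, 1 of the 2 genes of the group known to cut the cartilage protein COMP (chr15:11064876-11349318, plus strand), fell least. Its scaled counts were 817, 766, 1332 and 1318 in control and 299, 742, 761 and 558 in OGTi, with little difference in pair 2. The log2 fold change was −0.89 (SE 0.27, adjusted p = 0.0458). This call was lost in 7 of 14 alternatives, among them the fits without replicate 1 (adjusted p = 0.117), 3 (0.140) or 4 (0.177), over a range of 0.0138 to 0.177. Adamts1, a proteoglycanase that lies 53.1 kb from Adamts5 and was the most abundant ADAMTS gene, did not pass the test. It gave 7852, 8204, 4003 and 4227 scaled counts in control and 1241, 5048, 2131 and 4579 in OGTi (log2 fold change −1.01, SE 0.38, adjusted p = 0.0968), with pair 4 going slightly the other way. Without replicate 1 it was −0.50 (adjusted p = 0.187), and Adamts1 was called lower with library totals (0.0442) and without the count filter (0.0047), over a range of 0.0047 to 0.187. Of the 6 tested ADAMTS genes in the proteoglycan-cleaving group, Adamts5 was the only one called, and the median of the group was −1.28.

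Of the 16 ADAM genes tested 2 fell, both of them sheddases, a share of 12.5% against 10.2% of all genes. Adam19 (chr11:45946775-46038172, plus strand), which can release neuregulin from the cell surface, gave 4454, 4179, 6089 and 6899 scaled counts in control and 850.0, 2612, 2056 and 1716 in OGTi. All OGTi values lay below all control values, and the log2 fold change was −1.66 (SE 0.28, adjusted p = 0.00352). Adam12 (chr7:133484928-133833875, minus strand), a sheddase induced in activated stellate cells, gave 475, 472, 872 and 864 in control and 116, 352, 354 and 157 in OGTi. These groups did not overlap either, and the log2 fold change was −1.55 (SE 0.34, adjusted p = 0.0108). Without replicate 4 the adjusted p of Adam12 was 0.0619, the highest of 14 alternatives, of which the lowest was 4.74e-05.

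**Figure D3:**
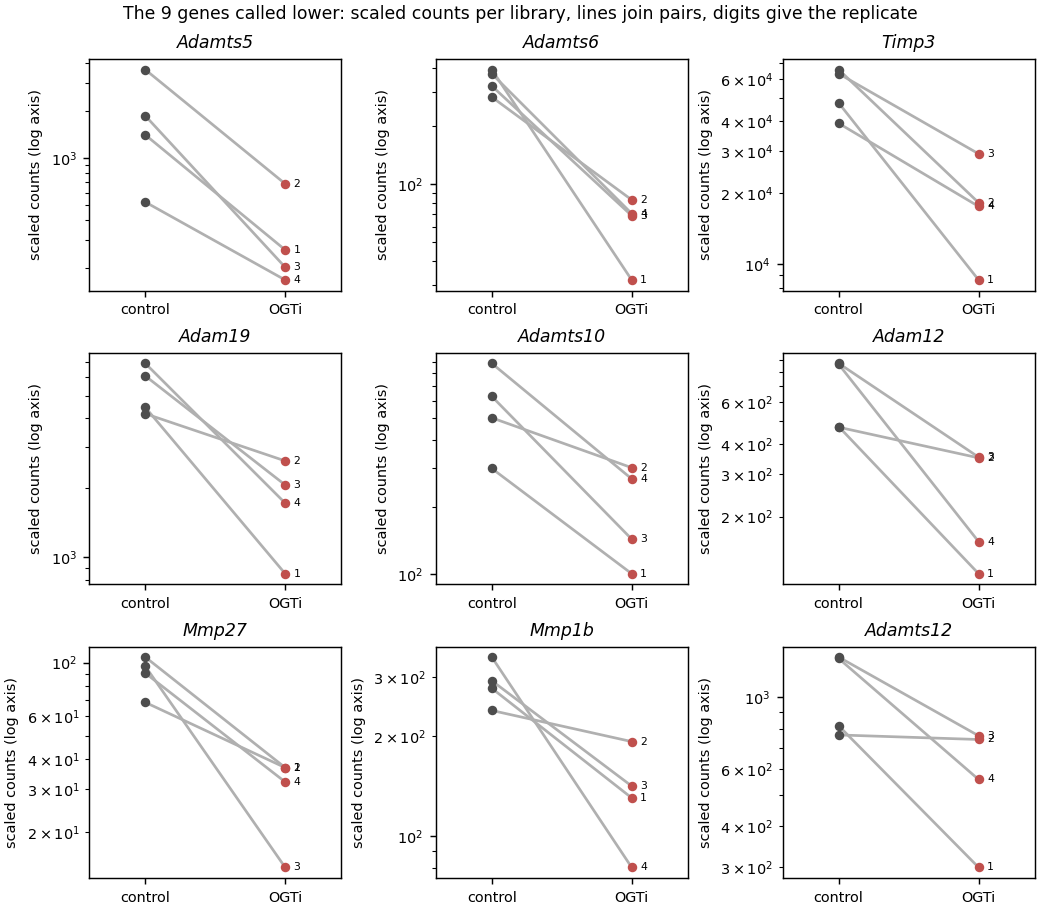
Scaled counts (log axes, which differ between panels) of the 9 genes called lower, with control libraries in grey, OGTi libraries in red, and a line joining each numbered pair. All 36 lines descend, and for every gene but Adamts5 and Timp3 the line of pair 2 is the shallowest.

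Adam9, Adam17, Adam10 and Adam15, each above 20 TPM on average, did not pass the test, whereas Adam19 at 29.6 TPM did. Adam9, whose product releases EGF-family ligands, gave 24248, 20397, 28328 and 26628 scaled counts in control and 3634, 18076, 19840 and 16480 in OGTi. The groups did not overlap, yet OGTi replicate 1 lay far below the rest, and the log2 fold change was −0.99 (SE 0.37, adjusted p = 0.0951). Without replicate 1 it was −0.46 (adjusted p = 0.0999, with 0.0024 to 0.223 over 14 alternatives, 2 of which called it lower). Adam17, the main enzyme that releases TNF, was also lowest in OGTi replicate 1, while the groups overlapped and pair 3 was level, with 2466, 2302, 2325 and 2896 in control and 451, 2192, 2418 and 1917 in OGTi. Its log2 fold change was −0.73 (SE 0.38, adjusted p = 0.225) with all libraries and −0.20 (adjusted p = 0.543, the highest of 0.0735 to 0.543) without replicate 1. Adam10, the sheddase that starts Notch cleavage, gave 3808, 3615, 4108 and 3323 in control and 1626, 3233, 3708 and 2522 in OGTi (log2 fold change −0.48, SE 0.24, adjusted p = 0.193), and the value was −0.23 (adjusted p = 0.392, within 0.0671 to 0.466) without replicate 1. OGTi replicate 1 was again the lowest, and it also held the lowest summed ADAM level, 96.4 TPM against 291.3 to 375.2 TPM in the other OGTi libraries. The adhesive ADAM Adam15 had its low value in a control library instead. It gave 4722, 6739, 5449 and 1256 in control and 3740, 5520, 4042 and 4701 in OGTi, for a log2 fold change of 0.17 (SE 0.37, adjusted p = 0.803) that became −0.34 (adjusted p = 0.338, the lowest of 0.338 to 0.988) without replicate 4. The 3 neural ADAMs that lack catalytic activity (Adam11, Adam22 and Adam23) were all under 1 TPM, and none passed the test. Adam11 was called lower with DESeq2, without a count filter and with limma on either TPM scale. Adam22 was called lower with limma on log2(TPM + 1), and Adam23 in no alternative.

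Of the 3 TIMP genes tested 1 fell, a share of 33.3% against 10.2% of all genes. Timp3 (chr10:86136236-86185371, plus strand) encodes the inhibitor that stays bound to matrix and, besides MMPs, blocks ADAM17 and aggrecanases. Its levels were 515.9, 710.8, 708.7 and 430.8 TPM in control and 64.3, 182.4, 252.0 and 157.4 TPM in OGTi, with a wide gap between the groups. In scaled counts the log2 fold change was −1.65 (SE 0.25, adjusted p = 0.00194), a 3.13-fold decrease that stayed called in all 14 alternatives. Timp3 lies inside the gene Syn3 on the opposite strand, with overlapping exons. The counting used strand, and Syn3 held 57.4 to 143.6 scaled counts against 8606 to 65813 for Timp3.

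Timp1 (chrX:20736316-20740976, plus strand), a secreted inhibitor used as a marker of liver fibrosis, gave 12382, 9374, 16719 and 20054 scaled counts in control and 19645, 12859, 21537 and 29868 in OGTi. The groups overlapped, but each OGTi library was above its own control, and the log2 fold change was 0.52 (SE 0.17, adjusted p = 0.0675). In TPM, which is not adjusted for the composition of the library, pair 3 differed little (1353 against 1348 TPM). Upper-quartile scaling (adjusted p = 0.0438), a stricter count filter (0.0406) and DESeq2 (0.0152) called Timp1 higher, over a range of 0.0152 to 0.292. Timp2, which takes part in the activation of MMP2 at the cell surface, gave 2934, 3053, 3498 and 2735 in control and 4146, 3859, 2259 and 2617 in OGTi. Pairs 1 and 2 were higher and pairs 3 and 4 lower, and the log2 fold change was 0.04 (SE 0.23, 95% interval −0.48 to 0.56, adjusted p = 0.936).

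The balance between Timp1 and Timp3 was computed after these values had been seen. The ratio of their TPM was 1.86, 1.03, 1.91 and 3.70 in control and 16.5, 5.13, 5.35 and 12.3 in OGTi, so every OGTi library was above every control library. The mean log2 difference was 2.17 (SD 0.74, n = 4 pairs, exact two-sided sign-flip p = 0.125, the smallest p that 4 pairs allow). Timp1 made up 63.4% ± 11.4 (SD, n = 4) of the summed TIMP level in control and 86.3% ± 5.66 (SD, n = 4) in OGTi, and Timp3 made up 34.1% ± 11.03 and 11.02% ± 5.30 (SD, n = 4 each).

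**Figure D4:**
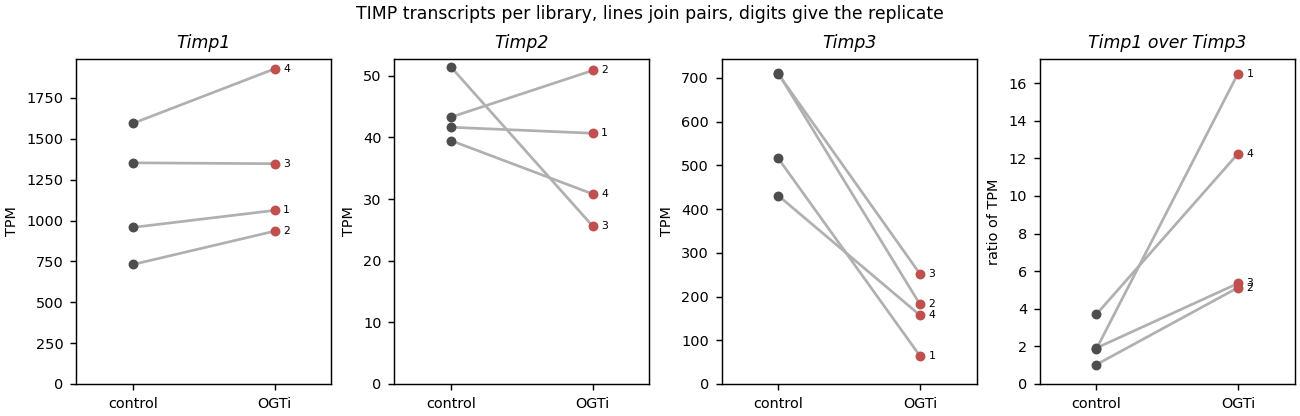
TIMP levels in TPM and the ratio of Timp1 to Timp3 (linear axes from 0), with control in grey, OGTi in red and lines joining numbered pairs. Timp3 drops from 430.8 to 710.8 TPM in control to 64.3 to 252.0 TPM in OGTi, and the lowest OGTi ratio, 5.13, exceeds the highest control ratio, 3.70.

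Of the 20 MMP genes tested 2 fell, a share of 10% against 10.2% of all genes, and both belong to a cluster of 10 MMP genes on chromosome 9. This cluster spans 427.1 kb from Mmp13 to Mmp7 (GRCm39, GENCODE vM39) and also holds the abundant Mmp3 and Mmp10, so its start sites were read from the genome. The letters TGANTCA, the core recognised by AP-1 factors, occurred within 100 bases before the start of 8 of the 10 genes, between 35 and 95 bases upstream, and 7 of these were spelled TGAGTCA or TGACTCA. The motif reads the same on both strands. It was present in 2.38% of such windows over 21770 protein-coding genes and in 17.1% of those of the 70 genes. The windows of the 3 abundant cluster genes, of the 2 that fell, and of Adam19, which also fell and is on chromosome 11, are given 5′ to 3′ on the strand of the gene, with TGANTCA in capitals.
Mmp3, chr9:7445722-7445821, plus strand: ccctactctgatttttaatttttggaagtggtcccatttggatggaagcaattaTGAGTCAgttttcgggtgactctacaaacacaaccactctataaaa
Mmp10, chr9:7502253-7502352, plus strand: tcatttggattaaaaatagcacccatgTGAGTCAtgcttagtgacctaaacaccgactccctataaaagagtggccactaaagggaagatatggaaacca
Mmp13, chr9:7272414-7272513, plus strand: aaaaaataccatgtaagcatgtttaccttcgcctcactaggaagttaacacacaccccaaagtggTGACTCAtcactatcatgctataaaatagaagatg
Mmp1b, chr9:7388048-7388147, minus strand: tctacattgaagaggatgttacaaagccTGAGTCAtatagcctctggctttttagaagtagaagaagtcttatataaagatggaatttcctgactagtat
Mmp27, chr9:7571297-7571396, plus strand: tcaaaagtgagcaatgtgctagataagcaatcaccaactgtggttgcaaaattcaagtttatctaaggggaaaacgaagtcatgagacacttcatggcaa
Adam19, chr11:45946675-45946774, plus strand: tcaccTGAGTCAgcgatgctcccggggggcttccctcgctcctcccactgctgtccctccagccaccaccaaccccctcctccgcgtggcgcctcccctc
These letters were present in Mmp1b and Adam19 and not in the Mmp27 window. In windows of 250 bases TGANTCA was found for 2 of the 9 genes called lower (Mmp1b and Adam19), and for 24.3% of the 70 genes and 6.17% of all protein-coding genes. The letters GGAATG, the core recognised by TEAD factors and searched on both strands, were found for 7.14% and 12.1%, and for 0 of the 9 genes called lower. A match is a description of the sequence and binding was not measured here.

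Within the cluster the 2 genes that fell were expressed at low levels. Mmp27 (chr9:7571397-7581891, plus strand), a little studied family member, gave 105.5, 68.6, 96.7 and 90.6 scaled counts in control and 36.9, 36.9, 14.3 and 32.2 in OGTi. The groups were apart, and the log2 fold change was −1.63 (SE 0.39, adjusted p = 0.0161). Mmp1b (chr9:7368239-7388047, minus strand), 1 of a pair of paralogs related to the human interstitial collagenase, gave 278, 238, 293 and 345 in control and 130, 192, 141 and 80.4 in OGTi. Its log2 fold change was −1.13 (SE 0.31, adjusted p = 0.0322). How reads that match both paralogs were divided was not tested. Mmp1a, at 0.28 TPM on average, had a log2 fold change of −1.66 (SE 0.65, adjusted p = 0.109) and also did not overlap between groups. Both calls were lost without replicate 1, 3 or 4. Over these fits the adjusted p was 0.0509, 0.0872 and 0.0590 for Mmp27, with a range of 0.00139 to 0.0872 over all alternatives, and 0.0765, 0.102 and 0.138 for Mmp1b, with a range of 0.00478 to 0.138. The log2 fold change ran from −1.86 to −1.04 for Mmp27 and from −1.43 to −0.81 for Mmp1b over all alternatives.

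The abundant MMPs of the cluster did not pass the test. Mmp10 gave 57780, 54755, 67223 and 70011 scaled counts in control and 57835, 72358, 67361 and 36654 in OGTi, and 3 of 4 pairs were level or higher. The log2 fold change was −0.13 (SE 0.22, 95% interval −0.63 to 0.37, adjusted p = 0.751), and it was 0.15 (adjusted p = 0.692, within 0.193 to 0.998) without replicate 4. Mmp3 gave 33886, 23918, 70937 and 87738 in control and 34408, 33084, 45322 and 24439 in OGTi. Control replicates 3 and 4 were the high ones, and the log2 fold change was −0.49 (SE 0.33, adjusted p = 0.349). It was −0.04 without replicate 4 and −0.79 without replicate 2, with adjusted p of 0.138 to 0.941 over 14 alternatives. Mmp13, the main interstitial collagenase of mice, gave 3602, 1877, 4344 and 8264 in control and 1125, 2456, 2718 and 3184 in OGTi. Pair 2 went up and the other 3 went down, with a log2 fold change of −0.85 (SE 0.32, adjusted p = 0.099). Without replicate 2 Mmp13 was called lower (log2 fold change −1.22, adjusted p = 0.0232), and its adjusted p ran from 0.0161 to 0.316 in 14 alternatives.

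**Figure D5:**
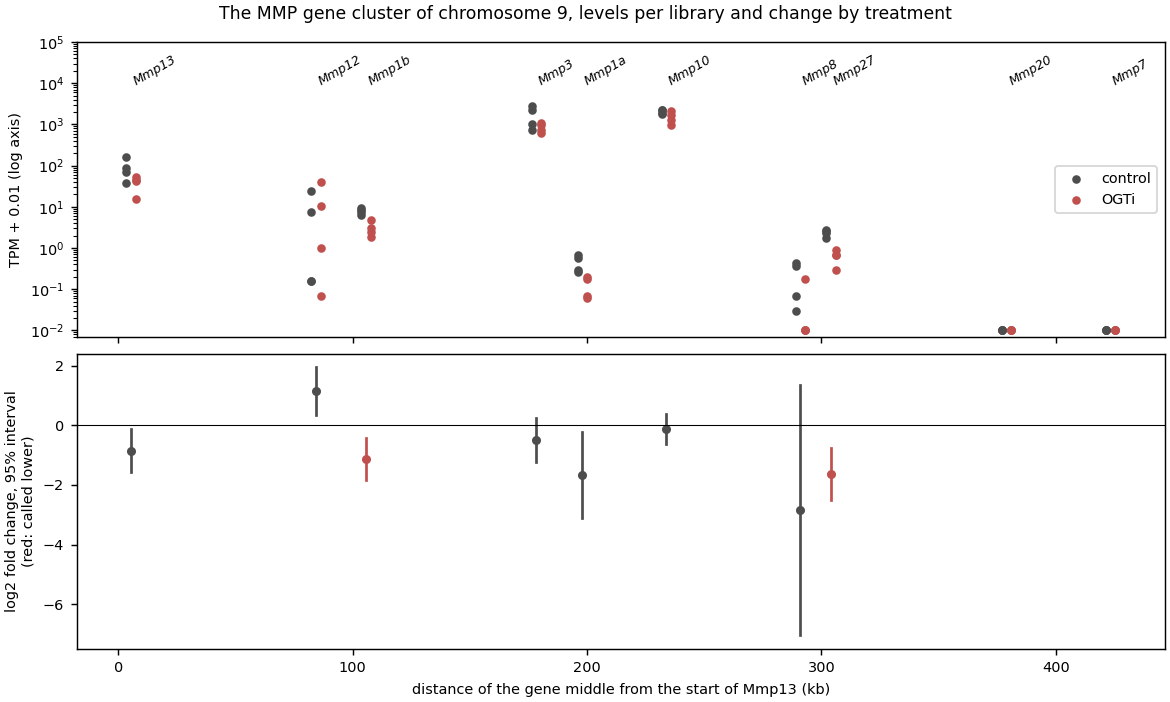
The 10 genes of the MMP cluster by distance from the start of Mmp13 (kb), with levels as TPM plus 0.01 (log axis) for control (grey) and OGTi (red) libraries above and the log2 fold change with its 95% interval below. Mmp1b and Mmp27 (red below) were called lower, and Mmp20 and Mmp7 had no counts.

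Mmp12, the macrophage metalloelastase gene of the cluster, and Mmp23 were singled out after their values were seen. Mmp12 gave 7.3, 9.7, 1295 and 388 scaled counts in control and 6.1, 58.1, 2709 and 698 in OGTi. It was thus high in replicates 3 and 4 of both groups, higher in OGTi in 3 of 4 pairs, and the log2 fold change was 1.14 (SE 0.36, adjusted p = 0.0517). It was called higher in 6 of 14 alternatives, with adjusted p between 0.00691 and 0.704. Of the 11 macrophage markers that passed the count filter, 8 were higher in both of control replicates 3 and 4 than in both of replicates 1 and 2, and 6 of these 8 also in OGTi (Adgre1, Lyz2, C1qa, C1qb, Cd5l and Vsig4). Lyz2 was at 137.7 and 63.3 TPM in control replicates 3 and 4 against 13.7 and 26.5 TPM in replicates 1 and 2, and C1qa was at 5.57 and 1.67 TPM against 0 in both. In OGTi replicates 1 to 4 Lyz2 was at 18.6, 35.8, 167.5 and 58.3 TPM and C1qa at 0, 0.12, 2.10 and 0.91 TPM. Cd68, the 1 macrophage marker that rose, ran the other way, from 32.3 and 24.7 TPM in control replicates 1 and 2 to 23.1 and 11.02 TPM in 3 and 4, and was again lowest in replicates 3 and 4 of OGTi. The fibroblast marker Lum, at 61.8, 34.1, 390.6 and 558.7 TPM in control, was also high in replicates 3 and 4, as were 9 of the 12 stellate and fibroblast markers in control and 6 of them in both groups. Over all marker lists 21 of 56 genes had this pattern in control and 13 in both groups. Its share over all genes was not computed. C1qb, Cd5l and Vsig4 were at 6.22, 6.21 and 2.79 TPM in control replicate 3 and at no more than 0.1 TPM in control replicates 1 and 2, Adgre1 reached at most 0.96 TPM in any library, and the part of macrophage RNA in the Mmp12 result was not tested. Mmp12 and Mmp1b overlap at their 3′ ends on opposite strands. Mmp23 gave 37.6, 71.2, 320.4 and 341 in control and 81.9, 122.8, 415 and 482 in OGTi, with a log2 fold change of 0.68 (SE 0.25, adjusted p = 0.0909) and the OGTi value above the control in each pair.

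Outside the cluster the gelatinase and membrane-type genes did not pass the test. Mmp2, which degrades denatured collagen and basement membrane, gave 1754, 1936, 3799 and 5378 scaled counts in control and 1174, 1591, 2753 and 3939 in OGTi. It was lower in each pair by a similar amount, while the spread between replicates was larger than the difference, and the log2 fold change was −0.44 (SE 0.19, adjusted p = 0.143). Mmp2 was called lower in 3 of 14 alternatives, with library totals (adjusted p = 0.049) and with limma on either TPM scale (0.024 for both), over a range of 0.024 to 0.538. Mmp14, the membrane-bound activator of MMP2, gave 2345, 2993, 2748 and 1911 in control and 2814, 2572, 1592 and 1260 in OGTi (log2 fold change −0.34, SE 0.23, adjusted p = 0.358). Its value was −0.53 without replicate 1 and −0.18 without replicate 3, with adjusted p of 0.0649 to 0.855 over 14 alternatives. Mmp9, the second gelatinase, had 0 to 12.3 scaled counts in any library, and its log2 fold change of 0.59 had a 95% interval of −2.73 to 3.92 (adjusted p = 0.834). None of the 6 membrane-type MMP genes passed the test. All 6 had a log2 fold change below 0, as had 9940 of all 19963 genes tested. None of the 6 was lower in all 4 pairs, and Mmp17 (log2 fold change −0.08) was higher in 3 of 4 pairs.

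Summed levels followed the few abundant genes. Mmp3 and Mmp10 together made up 94.3% ± 0.34 (SD, n = 4) of the summed MMP level in control and 94.5% ± 2.37 (SD, n = 4) in OGTi. The MMP sum was 3945 ± 1308 TPM in control and 2515 ± 712 TPM in OGTi (SD, n = 4), lower in 3 of 4 pairs (mean log2 difference −0.63, exact two-sided sign-flip p = 0.25). In scaled counts, and in TPM without replicate 4, that difference was −0.31. The TIMP sum was 1795 ± 341 TPM and 1519 ± 453 TPM (mean log2 difference −0.27, exact p = 0.25), with a difference of −0.77 in scaled counts and −1.72 without Timp1 (exact p = 0.125 for both). The ratio of the MMP to the TIMP sum was 2.01, 1.78, 2.25 and 2.59 in control and 1.79, 2.77, 1.84 and 0.83 in OGTi, so it differed by less than the spread between pairs (mean log2 difference −0.37, SD 0.95, exact p = 0.625). Its direction turned when scaled counts replaced TPM (0.46). Scaled counts, unlike TPM, are not adjusted for gene length, so longer genes weigh more in their sums. Timp3 had a length of 4681 bases against 849 for Timp1. Sums of ADAM and ADAMTS levels were lower in all 4 pairs. They were 516 ± 56.2 and 272 ± 122 TPM for ADAMs and 96.8 ± 23.4 and 38.0 ± 22.3 TPM for ADAMTS genes in control and OGTi (SD, n = 4 each, exact p = 0.125 for both, the smallest possible).

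Partners of these enzymes were read from the same fit in 9 lists of 83 genes, of which 75 were tested. In these lists 8 genes rose and 8 fell, 10.7% in each direction, close to the 8.13% higher and 10.2% lower of all genes tested, and the genes are given singly. The median log2 fold change was 0.12. Without replicate 3, 3 of these genes rose and 2 fell, where 4.38% and 5.52% of all genes were called. Without replicate 4, 3 rose and 4 fell, where 4.77% and 5.67% of all genes were called. Among activators 2 of 9 rose, both of the plasminogen system that activates MMPs. The urokinase receptor gene Plaur was at 210.8 to 424.2 TPM in control and 555.0 to 753.3 TPM in OGTi (log2 fold change 1.33, SE 0.23, adjusted p = 0.00337), and the plasminogen activator gene Plat had a log2 fold change of 0.79 (SE 0.20, adjusted p = 0.0211). The urokinase gene Plau, whose product binds the Plaur receptor, did not pass the test and was lower in all 4 pairs (−1.34, SE 0.49, adjusted p = 0.0867). Of 11 other protease inhibitors Tfpi2 fell (−1.01, SE 0.22, adjusted p = 0.01) and the cystatin gene Cst6 rose (0.88, SE 0.27, adjusted p = 0.0445). Of 11 receptors and docking proteins 2 fell, namely Lrp1, a receptor that clears MMPs and TIMPs from the medium (−0.97, SE 0.21, adjusted p = 0.0111), and the proteoglycan Sdc1 (−1.13, SE 0.26, adjusted p = 0.0142).

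The regulators and substrates of sheddases moved in both directions. Of 9 genes that escort ADAM10 or ADAM17 to the cell surface, the tetraspanin Tspan5 (2.18 on the log2 scale, SE 0.32, adjusted p = 0.00168) and the inactive rhomboid Rhbdf1 (0.85, SE 0.22, adjusted p = 0.0249) rose, while Frmd8, which stabilises the rhomboid complex, fell (−0.71, SE 0.20, adjusted p = 0.0331). Among 7 EGF-family ligands that ADAMs release, Areg rose from 0.19 to 0.94 TPM in control to 2.44 to 10.5 TPM in OGTi (log2 fold change 3.45, SE 0.55, adjusted p = 0.0026). Btc (−2.19, SE 0.28, adjusted p = 0.000874) and Tgfa (−1.28, SE 0.31, adjusted p = 0.0167) fell. Of 5 tested proteoglycan and matrix substrates of ADAMTS enzymes the versican gene Vcan fell (−0.95, SE 0.26, adjusted p = 0.0301), and the aggrecan gene Acan had no count. Of 10 matrix proteases of other classes the lysosomal cathepsins Ctsl (0.92, SE 0.22, adjusted p = 0.0158) and Ctsd (0.58, SE 0.17, adjusted p = 0.0365) rose. Of 7 astacin-related and other metalloproteases Ece1, the endothelin-converting enzyme, fell (−1.22, SE 0.19, adjusted p = 0.00213), and of 6 ADAMTS-like genes none passed the test.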

How the data were processed

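RNA-seq was analysed from 8 pMF-HSC cultures, 4 control and 4 OGTi, grouped by their titles. The authors prepared stranded mRNA libraries, mapped reads to mm39 (GRCm39) with Bowtie2 2.3.5.1 and quantified genes with RSEM 1.3.1, per the study's methods and processing notes. The deposited expected counts are RSEM estimates per gene, and the deposited TPM are scaled by gene length and depth. A table of the authors' own comparison, with DESeq2 1.36.0 fold changes, p-values and normalized values, was not used. All columns with a value per sample were mapped (0 left over).

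After rounding, expected counts were fitted in R 4.3.3 with edgeR 4.0.16 (TMM, glmQLFit, glmQLFTest, replicate as a block) for the 19963 genes with at least 10 counts in all. P-values were adjusted by Benjamini-Hochberg over all of them, and an adjusted p of at most 0.05 was called. The fit was tested on simulated data. The standard error is the log2 fold change divided by the root of F. Sums were compared by exact sign flips of the 4 pair differences. Named were the called genes, the 10 of highest mean TPM and a fixed list (the TIMPs, Mmp2, Mmp3, Mmp9, Mmp10, Mmp13, Mmp14, Adam10 and Adam17), and up to 3 genes of lowest adjusted p per partner list. Other genes given with values were chosen after their values were seen. Members and lists were chosen with earlier results of these data known.

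The methods pair treated and control samples of a replicate. Deviations from group means in log2 CPM correlated at 0.16, 0.224, 0.105 and 0.318 across genes for same-numbered libraries and at −0.312 to 0.208 for others. Reads carried no molecular identifiers. Positions and the 250 bases before each canonical transcript start were taken from GENCODE vM39 and GRCm39 by symbol, and all 70 symbols matched. Alternatives covered the block, scaling (DESeq2 1.42.0 size factors, upper quartile, totals), the count filter, a length correction, each replicate left out, DESeq2, and limma 3.58.1 on log2(TPM + 1) and log2(TPM + 0.1).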

Additional observations from a re-analysis of the deposited data

How the results depend on the processing

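Adamts5, Adamts6, Timp3, Adam19 and Adamts10 remained called lower in all 14 alternatives. Against 9 genes lower and 0 higher, the fit without the replicate block gave 8 and 0. Genes called lower numbered 17 with library totals alone, 16 without a count filter, 16 with limma on either TPM scale, and 5 at a stricter threshold of 0.01. The share of all genes called lower was 14.6% with totals, 9.28% without a count filter, and 17.3% and 17.4% with limma, against 10.2%. Genes called higher numbered 1 with DESeq2 size factors, without a count filter, with the stricter filter, and with the block kept and a length trend removed. They numbered 2 with upper-quartile scaling and 3 with DESeq2. Leaving out each replicate gave 5 to 11 lower, fewest without replicate 4, and 0 to 1 higher, the 1 (Mmp12) without replicate 1. Without replicates 1 to 4 in turn, 9.03%, 8.53%, 5.52% and 5.67% of all genes were called lower. The shares of all genes called higher were 7.14%, 7.43%, 4.38% and 4.77%. The length trend was examined because the 9 genes called lower had a median length of 5938 bases against 3529 in the other 42. The median of all genes moved to 0.13 with upper-quartile scaling, −0.19 with totals, 0.14 without a filter, and −0.10 and −0.24 with limma. Partner genes (8 higher, 8 lower) gave 6 higher and 4 lower without the block, and 3 to 8 higher and 2 to 9 lower when a replicate was left out, 3 and 2 without replicate 3 and 3 and 4 without replicate 4. Of all genes, 7.31% were called higher and 7.67% lower without the block. These shares were 4.38% and 5.52% without replicate 3, and 4.77% and 5.67% without replicate 4. The log2 fold change of Adam15 turned to −0.013 without the block, −0.020 with totals, −0.12 with limma on either scale (−0.119 and −0.116) and ran from −0.34 without replicate 4 to 0.39 without replicate 3. That of Timp2 turned to −0.16 with totals, −0.28 and −0.29 with limma, −0.12 without replicate 1 and −0.04 without replicate 2, against 0.26 without replicate 3 and 0.27 with the block kept and a length trend removed. That of Mmp9 ran from −0.54 without replicate 1 to 1.89 without replicate 2 and that of Mmp10 turned to 0.15 without replicate 4. The log2 ratio of the MMP to the TIMP sum turned to 0.46 in scaled counts and 0.90 without the most abundant gene of each family, and ran from −0.70 to 0.061 when a replicate was left out, turning without replicate 4. For all of these the cause was not tested. Intervals of several genes under 1 TPM, such as Mmp8 and Mmp9, were wide, and the absence of a call says little for those.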
